A study of Homo sapiens with 6 samples.

Results

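Zinc finger genes were examined in AsPC-1, an established human pancreatic cancer cell line, as the 10 rows of 753 in the authors' deposited table whose symbol begins with ZNF, ZSCAN, ZKSCAN, ZBTB, ZFP, ZIK, ZIM or ZXD. They are ZBTB20, ZNF862, ZNF608, ZNF362, ZNF584, ZNF566, ZNF497, ZNF25, ZSCAN4 and ZNF511-PRAP1, and the rule used the symbol alone. Gene expression was measured by RNA sequencing in 3 libraries of cells given a control lentivirus (genotype label TMPRSS4 NC, here control) and 3 libraries of cells given an shTMPRSS4 lentivirus (label TMPRSS4-Knockdown, here shTMPRSS4). TMPRSS4 is a membrane-bound serine protease, and the study asked what changes when its transcript is targeted. All cells were AsPC-1 and all carried a lentivirus. The labels do not say whether the replicates were separate cultures, so p-values measure only the spread between these libraries, which may be technical. The outcome itself selected the rows: in the authors' deposited table every gene changed 2-fold or more, up or down, with a false discovery rate (FDR) of at most 0.049. TMPRSS4 is not among its rows, and whether its transcript missed that cut or was not in the authors' test is not shown. Genes outside the table were not analysed here. The rows therefore hold no measure of the knockdown, which was not checked.

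C2H2 zinc fingers are short protein folds in which a pair of cysteines and a pair of histidines hold a zinc ion, and arrays of them read DNA sequence. Many human zinc finger genes lie in clusters on chromosome 19. A large class carries a KRAB domain, which recruits the co-repressor TRIM28 and through it histone methylation. Other classes carry a BTB domain, which forms dimers and binds co-repressors, or a SCAN domain, which pairs one zinc finger protein with another.

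The members came from several of these classes. In GENCODE release 29 (GRCh38), 616 of 19951 protein-coding genes (3.09%) have a symbol with these prefixes, and the 10 members were 1.33% of the table. How many of the 616 were detected in these cells was not analysed here. In the longest annotated coding sequence of each gene, the finger pattern of paired cysteines and histidines occurred 14 times in ZNF497, 12 in ZNF25, 8 in ZNF584, 7 in ZNF566 and 6 in ZNF362. It occurred 5 times in ZBTB20, 4 in ZSCAN4, 3 in ZNF511-PRAP1, once in ZNF608 and not at all in ZNF862, against a median of 10 over the 616 genes. A pattern of the KRAB A box was found in 4 members, namely ZNF862, ZNF584, ZNF566 and ZNF25, and in 287 (46.6%) of the 616 genes. Both are matches to letters, not domain calls.

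Promoter windows from RefSeq (GRCh38.p14) run from 250 bases before a gene's start to 50 after it. By symbol they matched all 10 members, in 19 windows because several genes have more than 1 start and ZBTB20 has 8. In some windows, none of those printed below, the bases after the start were not found in the gene's GENCODE transcripts. The start used for ZNF584 (58408649) lies inside its GENCODE gene, and that for ZNF511-PRAP1 (133308914) lies before it. All 250 bases before the ZNF511-PRAP1 start are exons of TUBGCP2 or ZNF511. CG dinucleotides varied among the members: a window of 300 bases held 51 in ZNF362, 34 in both ZNF497 and ZNF584, 6 in ZNF608 and 2 in ZSCAN4. Between these lay ZNF566 (24 and 25) and ZNF25 (14 and 19), and the windows of ZBTB20 held 2 to 15. The median was 14 over the 19 member windows and also over all 35116 windows. The motif CCAAT was in 10 of the 19 windows (34.6% of all windows), GGGCGG in 6 (45%), CCGGAA in 6 (17.2%) and TATAAA in 5 (11.5%), each read on both strands. These are descriptions, and the 8 windows of ZBTB20 weigh on the counts. The stretches before the start of 4 members are shown as examples that differ in CG content, the CG-rich ZNF862 and ZNF497 and the CG-poor ZNF608 and ZSCAN4. The windows richest in CG, those of ZNF362 and ZNF511-PRAP1 (43), are not shown. Each is printed 5′ to 3′ on the gene's strand up to the first annotated exon base, with the 4 motifs in capitals.
ZNF862, chr7:149838125-149838366, plus strand: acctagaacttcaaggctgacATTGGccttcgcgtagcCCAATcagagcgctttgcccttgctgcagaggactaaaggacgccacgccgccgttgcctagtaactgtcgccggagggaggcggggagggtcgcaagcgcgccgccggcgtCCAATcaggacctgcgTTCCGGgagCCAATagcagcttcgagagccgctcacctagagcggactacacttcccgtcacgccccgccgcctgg
ZNF497, chr19:58362849-58363001, minus strand: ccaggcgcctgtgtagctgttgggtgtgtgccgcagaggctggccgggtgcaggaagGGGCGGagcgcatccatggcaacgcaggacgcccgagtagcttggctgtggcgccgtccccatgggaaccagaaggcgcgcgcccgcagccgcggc
ZNF608, chr5:124748825-124749074, minus strand: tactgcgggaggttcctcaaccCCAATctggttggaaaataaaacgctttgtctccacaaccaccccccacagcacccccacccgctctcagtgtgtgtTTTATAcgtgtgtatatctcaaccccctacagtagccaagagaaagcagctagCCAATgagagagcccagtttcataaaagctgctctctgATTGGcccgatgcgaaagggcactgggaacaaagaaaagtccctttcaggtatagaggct
ZSCAN4, chr19:57668685-57668934, plus strand: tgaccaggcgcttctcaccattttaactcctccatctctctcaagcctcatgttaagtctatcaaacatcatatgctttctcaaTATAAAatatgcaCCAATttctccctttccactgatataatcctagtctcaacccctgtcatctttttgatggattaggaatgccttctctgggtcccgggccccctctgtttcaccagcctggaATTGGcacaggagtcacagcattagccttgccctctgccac
The ZNF862 stretch held 25 CG dinucleotides and the ZNF497 stretch 16, against 6 in ZNF608 and 2 in ZSCAN4. CCAAT occurred on one strand or the other in the stretches of ZNF862, ZNF608 and ZSCAN4, and TATAAA in those of ZNF608 and ZSCAN4.

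Most of the zinc finger genes were about 2-fold higher in shTMPRSS4 cells relative to library depth. Of the 10 members, 9 were higher and 1, ZNF584, was lower in the authors' deposited table, where 73.7% of all rows were higher. ZBTB20 had the largest rise among the members with ample reads, 3.53-fold. Of the 8 members with enough counts to test, 7 rose and 1 fell (edgeR quasi-likelihood test on counts, Benjamini-Hochberg adjusted p under 0.05), where 73.3% of the 705 listed genes tested were called higher and 25.8% lower. The same 7 and 1 were called when a change of at least 2-fold was also required, as were 72.6% and 25.8% of all tested genes. The scale was also set from the listed genes themselves, by TMM or by DESeq2 size factors. The median of all tested genes was then 0.09 or 0.11. ZBTB20 was the 1 member called higher there and ZNF584 the 1 called lower. ZNF862, ZNF608, ZNF362, ZNF566 and ZNF497 turned to values just below 0. The share of all tested genes called under these scalings was not analysed here, so these calls do not single out the 2 genes. Because the rows had been selected for a difference in these libraries, the test is a description of them only. In FPKM, a level per transcript length and sequencing depth, the libraries of the groups did not overlap in 8 higher members and 1 lower member, where 72.8% and 25% of all 753 rows did so in these directions.

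**Figure D1:**
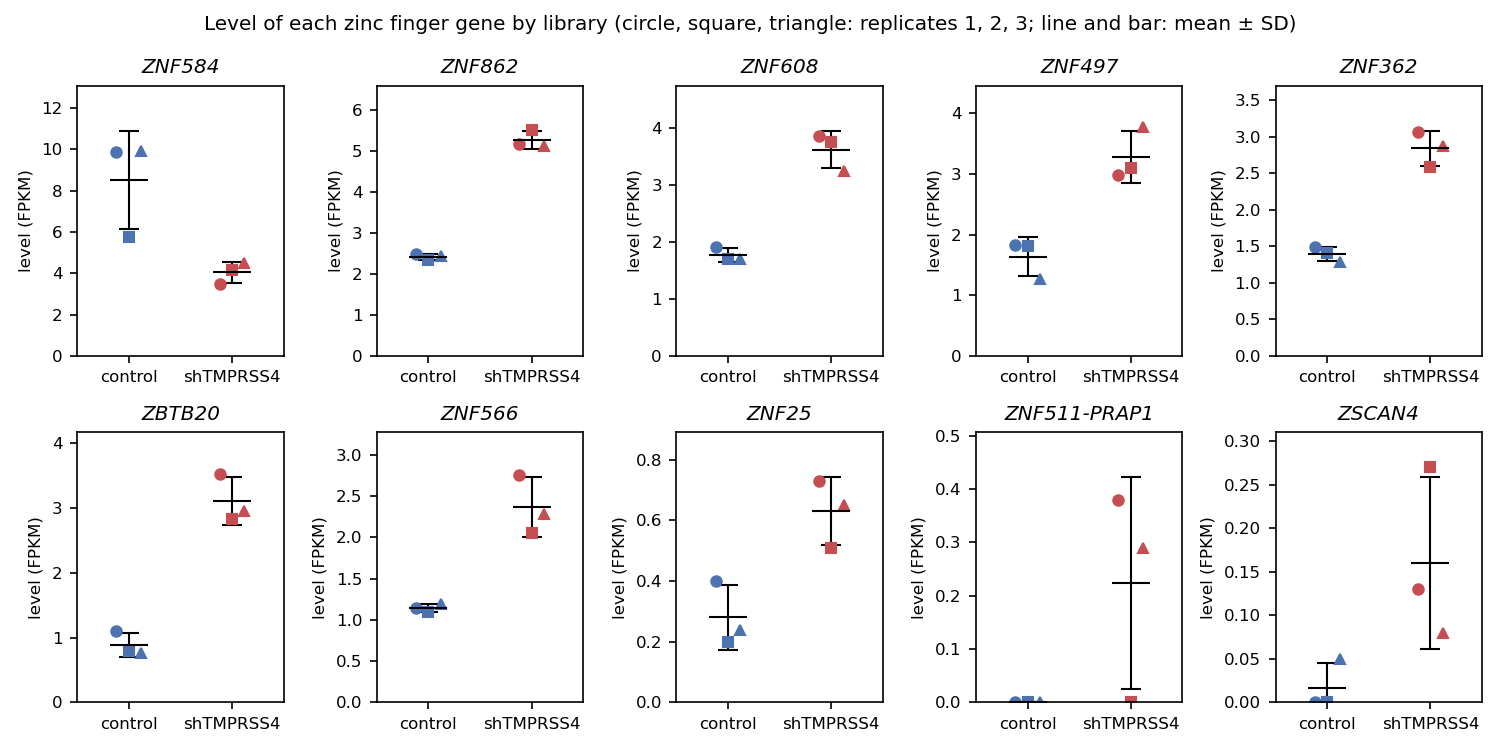
Level in FPKM (vertical axes, each from 0) of the 10 zinc finger genes in 3 control (blue) and 3 shTMPRSS4 (red) libraries; the black line and bar are the mean ± SD. The shTMPRSS4 libraries lie above the controls in 8 panels and below them for ZNF584, and ZNF511-PRAP1 has 1 shTMPRSS4 library at 0.

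The libraries differed in depth. Recovered from the ratio of count to FPKM, it was 57200000, 37200000 and 30200000 reads in control replicates 1, 2 and 3 and between 46800000 and 53300000 in the shTMPRSS4 libraries. Control replicate 3 is the single library with the code L3 in its label, and the others have L4. A single library allows no comparison inside L3, and values without it are given for ZNF497, the tested member it moved most, and for ZNF584 and ZSCAN4. None of 8 ductal epithelial markers was among the rows, so the cell type was not checked. Markers of other cell types did move: 3 of 4 goblet and secretory markers were listed, with a summed level of 8.96 to 12.3 FPKM in control and 149 to 153 in shTMPRSS4 libraries. The 2 of 4 neuron markers listed summed to 39.3 to 42.3 and 86.8 to 91.3 FPKM. Nearly all of that sum was TUBB3, and MAP2 was at 0.32 to 0.68 and 0.94 to 1.27 FPKM. The 1 listed marker each of acinar (CELA3A) and fibroblast (FAP) cells was higher in shTMPRSS4 libraries, that of endothelial cells (PECAM1) was lower, the endocrine marker GCG was at 0 in all controls and 0.08 to 0.21 FPKM in shTMPRSS4, and no immune marker of 4 was listed. The part of such cells or states in the results below was not tested. In bulk RNA, fewer cells of a type and less RNA per cell cannot be told apart.

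ZBTB20 was the 1 BTB member. It is a transcriptional repressor best known for silencing alpha-fetoprotein in liver. The gene (ENSG00000181722) lies on the minus strand of chromosome 3, 114314501 to 115147271. Its level was 1.10, 0.80 and 0.76 FPKM in control replicates 1, 2 and 3 and 3.52, 2.83 and 2.96 FPKM in shTMPRSS4 replicates 1, 2 and 3. Every shTMPRSS4 library was at least 2.57 times the highest control. The means were 0.887 ± 0.186 and 3.10 ± 0.367 FPKM (SD, n = 3 per group), a log2 fold change of 1.82 ± 0.19 (SE) with an edgeR adjusted p of 1.79e-06. The rise rests on 600 control and 2439 shTMPRSS4 reads. ZBTB20 was the member at the best rank by FDR in the authors' deposited table, 163 of 753. The authors' values match a gene length of 5199 bases, whereas its annotated transcripts reach 27125 bases, so its FPKM depends on that choice. Division by the same length in all libraries leaves a fold change unaltered. Which reads were counted for the gene is not known, and the part of that in the fold change was not tested. Of its 31-base words, 49% also occur in another annotated gene, 47.1% in AC093010.3, which overlaps it on the same strand.

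Of the 4 members with a KRAB pattern, ZNF862, ZNF566 and ZNF25 rose and ZNF584 fell. Their known cofactors gave no rows: none of 27 genes of the co-repressor list was in the table. That list holds TRIM28, SETDB1, the HP1 proteins and the partners of BTB proteins. The authors' FDR was adjusted over 15117 genes, and the table has 753 rows. A list of 27 genes would therefore be expected to give few rows or none. The absence of these cofactors is thus no result about them, and their levels were not analysed here.

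ZNF862 (ENSG00000106479, plus strand of chromosome 7, 149838367 to 149867479) is annotated in the table with nucleic acid binding and protein dimerization. It had 2.47, 2.34 and 2.43 FPKM in the controls and 5.15, 5.51 and 5.10 FPKM in shTMPRSS4 libraries. It was the most even of the 10 members, with the highest control only 1.06 times the lowest. From 1138 control and 2984 shTMPRSS4 reads, the log2 fold change came to 1.12 ± 0.04 (edgeR adjusted p = 7.14e-07). Exons of the antisense gene AC004877.1 lie opposite 26.3% of its exonic bases, and no step that marks strand is described, so reads of the 2 genes may not be told apart. Its nearest listed neighbour, SSPO, lies 4387 bases away and was lower, with a log2 fold change of -1.04 in the authors' deposited table.

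ZNF566 (ENSG00000186017, minus strand of chromosome 19, 36445119 to 36489902) is one of the KRAB zinc finger genes clustered on that chromosome. Its level was 1.15, 1.09 and 1.19 FPKM in the controls and 2.76, 2.05 and 2.28 FPKM in shTMPRSS4 libraries. The controls lay close together and replicate 1 stood above the other shTMPRSS4 libraries. The log2 fold change was 1.03 ± 0.13 (edgeR adjusted p = 0.000198), and it was 0.92 without that replicate.

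ZNF25 (ENSG00000175395, minus strand of chromosome 10, 37949572 to 37976633) was the lowest of the tested members. Its level was 0.40, 0.20 and 0.24 FPKM in the controls, from 95, 31 and 30 reads, and 0.73, 0.51 and 0.65 FPKM in shTMPRSS4 libraries, from 162, 107 and 126 reads. Control replicate 1 held 2 times the level of control replicate 2, and the lowest shTMPRSS4 library was 1.28 times the highest control. The log2 fold change was 1.21 ± 0.33 (edgeR adjusted p = 0.00288), and 1.49 without control replicate 1, the highest value with any 1 library left out.

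ZNF584 (ENSG00000171574, plus strand of chromosome 19, 58401504 to 58418327) was the 1 member that fell, and it had the highest control level of the 10. It had 9.85, 5.76 and 9.90 FPKM in control replicates 1, 2 and 3, from 844, 321 and 448 reads. In the shTMPRSS4 libraries it had 3.50, 4.16 and 4.47 FPKM, from 280, 314 and 313 reads. Control replicate 2 stood apart from the other controls and was 1.29 times the highest shTMPRSS4 library. The SD of the controls, 2.38 FPKM, was 6.21 times the 0.383 FPKM that counting alone would give. The means were 8.50 ± 2.38 and 4.04 ± 0.495 FPKM, a log2 fold change of -1.04 ± 0.28 (edgeR adjusted p = 0.000879). It was -1.29 without control replicate 2 and -0.90 without control replicate 3. The fall kept its sign under both scalings by the listed genes, where it was -2.23 with TMM and -2.21 with DESeq2 size factors.

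ZNF497 and ZNF584, both near the end of chromosome 19, were the 1 pair of members within 500000 bases of each other. They lie 38655 bases apart on opposite strands and went in opposite directions. ZNF497 (ENSG00000174586, minus strand, 58354357 to 58362848) carries the most finger patterns of the members and none of the KRAB pattern. Its level was 1.83, 1.82 and 1.26 FPKM in the controls and 2.98, 3.09 and 3.77 FPKM in shTMPRSS4 libraries. Control replicate 3, the L3 library, was the low control, and shTMPRSS4 replicate 3 the high library of its group. The log2 fold change was 1.01 ± 0.20 (edgeR adjusted p = 0.000432), and 0.84 among the L4 libraries (adjusted p = 0.00142). Of its 31-base words 43.1% occur in other genes, 21.1% in AC012313.3, and 29.3% of its exonic bases lie opposite antisense exons. No other row lay within 500000 bases of ZNF497 or ZNF584.

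ZNF608 and ZNF362 carry few or moderately many finger patterns and no KRAB pattern. ZNF608 (ENSG00000168916, minus strand of chromosome 5, 124636913 to 124748807) encodes a large protein annotated in the table as a negative regulator of transcription. It had 1.91, 1.71 and 1.70 FPKM in the controls and 3.86, 3.77 and 3.25 FPKM in shTMPRSS4 libraries, with a log2 fold change of 1.03 ± 0.10 (edgeR adjusted p = 1.21e-05). The lowest shTMPRSS4 library was 1.70 times the highest control.

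ZNF362 (ENSG00000160094, plus strand of chromosome 1, 33256545 to 33300719) had 1.49, 1.41 and 1.29 FPKM in the controls. In the shTMPRSS4 libraries it had 3.06, 2.59 and 2.88 FPKM. The groups did not overlap, and the log2 fold change was 1.02 ± 0.09 (edgeR adjusted p = 0.000103). Under 0.04% of the 31-base words of ZNF608 and of ZNF362 occur in other genes, so both counts are little exposed to shared reads.

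ZSCAN4 (ENSG00000180532, plus strand of chromosome 19, 57668935 to 57679152) is the SCAN domain member. It is known for brief expression in early embryos and embryonic stem cells and for a role at telomeres. It had 0, 0 and 3 reads in control replicates 1, 2 and 3 and 15, 29 and 8 reads in shTMPRSS4 replicates 1, 2 and 3. These correspond to 0, 0 and 0.05 FPKM against 0.13, 0.27 and 0.08 FPKM, so the groups did not overlap but all levels were low. The ratio of reads at equal depth was 14.4, with an exact binomial (Clopper-Pearson) 95% interval of 4.65 to 71.9 that covers counting error only. All control reads came from replicate 3, the L3 library, and without it the controls held none. The log2 fold change, a difference between group means that depends on the 0.5 added to each count, was 3.72 with that library and 4.86 without it. The filter on low counts removed ZSCAN4, so it was not tested; without the filter its edgeR adjusted p was 0.00733.

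ZNF511-PRAP1 (ENSG00000283496, plus strand of chromosome 10, 133309410 to 133352529) is a readthrough transcript that joins the zinc finger gene ZNF511 to PRAP1. It had 0 reads in every control and 21, 0 and 14 reads in shTMPRSS4 replicates 1, 2 and 3. With shTMPRSS4 replicate 2 at the control level, the groups overlapped. Against a floor of 3 reads over the control group it was at least 9.66-fold higher over the 3 shTMPRSS4 libraries together relative to recovered depth, and at least 4.24-fold with TMM and 4.32-fold with DESeq2 size factors. Each bound covers only the unknown control level, not the counting error or spread of the shTMPRSS4 libraries. It was 5.22-fold without control replicate 1, 5.98-fold without shTMPRSS4 replicate 1 and 14.5-fold without shTMPRSS4 replicate 2, relative to recovered depth. The log2 fold change of 7.80 in the authors' deposited table rests on a control mean of 0.001 put in place of 0. Its whole annotated sequence lies in exons of other genes on its strand, and 97.3% of its 31-base words occur elsewhere, 50.2% in PRAP1. Neither ZNF511 nor PRAP1 was in the table, so reads of the readthrough could not be set against those of its parts. It was removed by the filter; without the filter its edgeR adjusted p was 0.0281, and with any 1 control left out it was between 0.0538 and 0.0807.

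**Figure D2:**
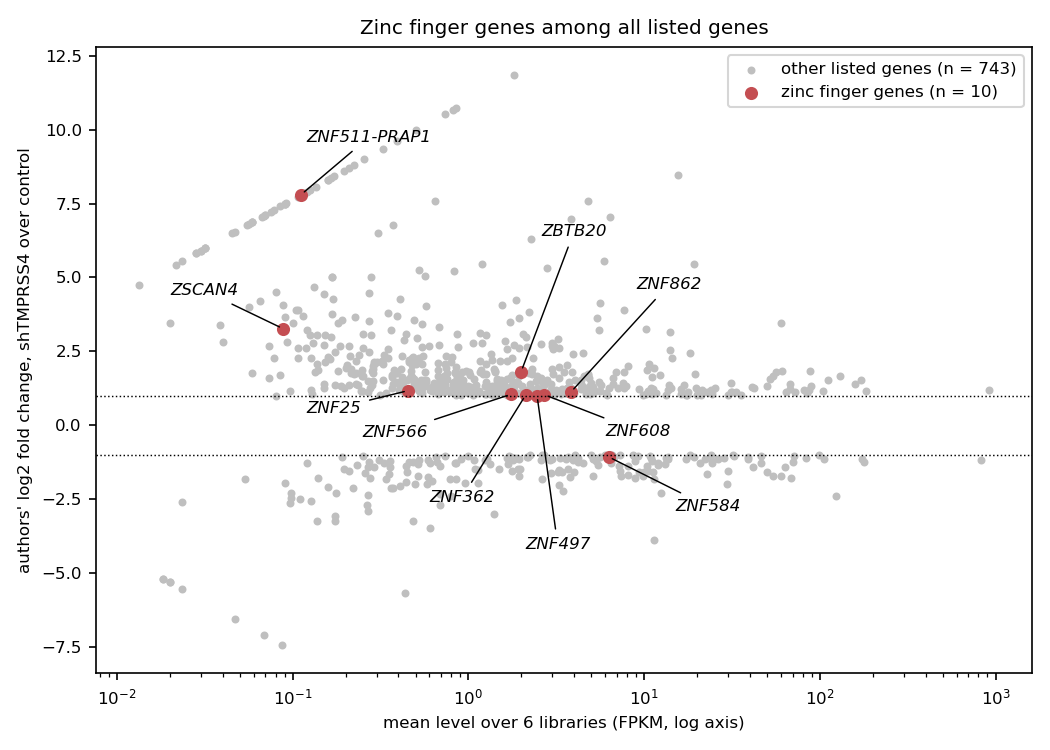
Authors' log2 fold change of shTMPRSS4 over control (vertical axis) against the mean level over 6 libraries in FPKM (horizontal log axis) for the 10 zinc finger genes (red) and the 743 other listed genes (grey); dotted lines mark 1 and -1, the edges of the selection. Most red points sit next to an edge, ZBTB20 is farther out, and ZNF511-PRAP1 lies on the diagonal of genes at 0 in control.

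Of the 10 members, 7 sat close to the edge of the selection and 3 did not. In the authors' deposited table, the 7 tested members other than ZBTB20 had absolute log2 fold changes from 1.003 to 1.17. Of all 753 rows, 160 (21.2%) had a value no higher than that upper end, and the median over all rows was 1.54. ZBTB20 (1.81), ZSCAN4 (3.26) and ZNF511-PRAP1 (7.80) lay farther out. ZNF497 (1.003), ZNF362 (1.03) and ZNF608 (1.03) were nearest to the limit of 1, and nothing outside it was analysed here. The median log2 fold change of the 9 higher members was 1.12 in that table, against 1.62 for all 555 higher rows. The median level of the 10 members over 6 libraries was 2.06 FPKM, against 1.10 FPKM for all rows.

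Replicates of the members varied more than counting alone would give in most cases. The SD of the controls was 2.80 times the counting SD for ZBTB20, 2.54 times for ZNF25 and 2.34 times for ZNF497. It was below the counting SD for ZNF862, ZNF362 and ZNF566. Of the 8 tested members, 6 had their highest control level in replicate 1, the deepest library, and 5 had their highest shTMPRSS4 level in replicate 1. ZNF584 had its highest value of each group in replicate 3. The part of depth in this was not tested.

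Other DNA-binding factors in the table were mostly higher, as were 73.7% of all rows. Of 51 other rows with a transcription factor activity term, 41 (80.4%) were higher and 10 lower, with a median log2 fold change of 1.33 in the authors' deposited table, the same to 2 decimals as over all rows. Of 110 other C2H2 factors in a list made with earlier results known, 4 were in the table. SP5, a WNT target, rose from 4.52 ± 0.528 to 16.4 ± 0.874 FPKM. GFI1, a zinc finger repressor of blood and secretory cell lineages, rose from 0.0467 ± 0.0115 to 0.647 ± 0.10 FPKM on 16 control reads, and KLF8 rose from 0.357 ± 0.201 to 1.03 ± 0.177 FPKM. SP6 fell from 9.16 ± 0.724 to 3.81 ± 0.242 FPKM. Of 5 further rows that are described as zinc finger genes but are not in that list, ZSWIM5, ZDHHC1, ZMAT1 and ZC3H6 rose and JAZF1 fell. The list is not a complete set of C2H2 genes. All 9 of these genes passed the edgeR test relative to depth, as did 99.1% of the listed genes tested, but with TMM ZC3H6 turned to -0.10 and KLF8 (0.48) and ZDHHC1 (0.10) were not called.

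**Figure D3:**
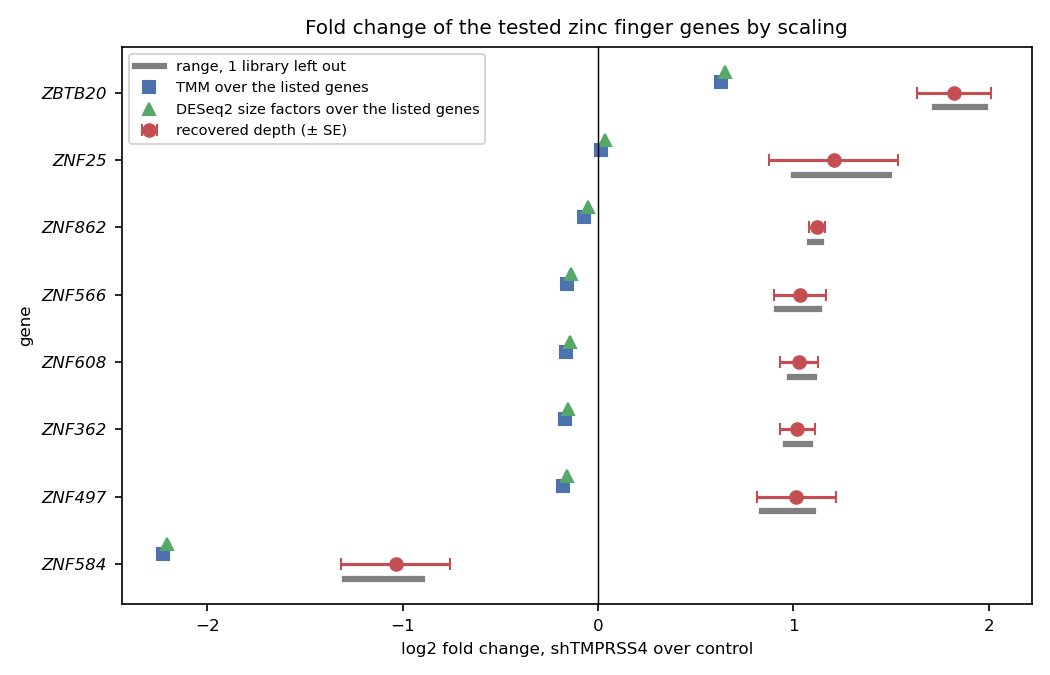
Log2 fold change of shTMPRSS4 over control (horizontal axis) for the 8 tested zinc finger genes with recovered depth (red, ± SE), with TMM (blue) and with DESeq2 size factors (green) over the listed genes; grey bars span the values with 1 library left out. With the listed genes as the scale, ZBTB20 is at 0.63 or 0.65, ZNF584 is below -2 and the other 6 lie between -0.18 and 0.04.

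The 6 members other than ZBTB20 and ZNF584 had log2 fold changes of 1.01 to 1.21 relative to recovered depth. These lay just below the median of 1.28 over all tested genes, which takes falls as negative values. By size alone they were among the smaller changes of the table. Setting the scale by those genes shifted the median of all tested genes by -1.19 (TMM) or -1.17 (DESeq2 size factors) on the log2 scale, and took ZNF862, ZNF608, ZNF362, ZNF566, ZNF497 and ZNF25 to values from -0.18 to 0.04. ZBTB20 remained higher at 0.63 (edgeR adjusted p = 0.00679) with TMM and 0.65 (adjusted p = 0.00269) with DESeq2 size factors. That scale is centred on the selected rows, and the directions above are relative to recovered depth.

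**Figure D4:**
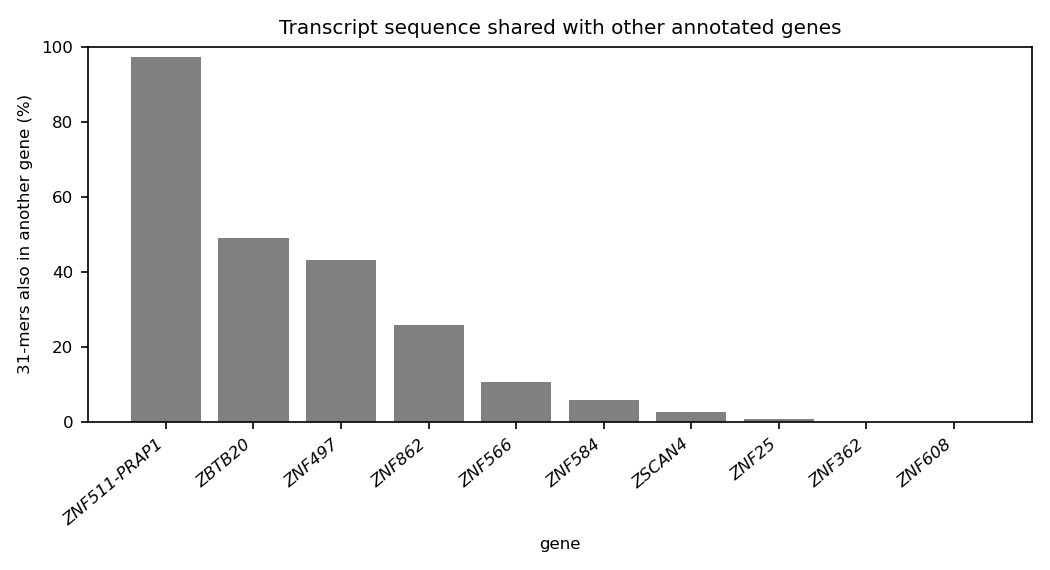
Percent of the 31-base words of each zinc finger gene's annotated transcripts that also occur in another GENCODE gene on either strand (vertical axis, from 0). ZNF511-PRAP1 (97.3%), ZBTB20 (49%), ZNF497 (43.1%) and ZNF862 (25.9%) stand above the other 6 genes.

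Sequence shared with other genes differed widely among the members. It was 10.5% of the 31-base words for ZNF566, 5.79% for ZNF584, 2.50% for ZSCAN4 and 0.868% for ZNF25. For ZBTB20, ZNF862, ZNF497 and ZNF511-PRAP1 the sharing came mostly from genes that overlap them in place. How the authors assigned such reads is not given in the sources used here, so the counts of these 4 genes are uncertain to that extent.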

How the data were processed

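RNA of 3 control and 3 shTMPRSS4 libraries was enriched with oligo(dT) beads and sequenced on an Illumina instrument, per the labels' protocols. The deposited table gives, per the file headers, a read count and an FPKM value (2 decimals) per gene and library. It also gives the authors' mean FPKM per group, log2 fold change, p-value and FDR. Bowtie 0.12.2 and builds mm8 and mm9, both of mouse, are listed per the submitters' processing notes, although all 753 identifiers are human, so the reference used is uncertain. The sources used here do not name the counting tool, annotation or test.

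The members, the gene lists and the rule for named genes were chosen with earlier results of these data known. By that rule (50 counts on average, largest changes, groups at 0 or overlapping, untested, nearest the fold limit) all 10 members are given by library. Relative depth was the median ratio of count to FPKM over 159 genes with at least 200 counts in each library, and its absolute size was set on 12 genes that have 1 annotated transcript each. It replaced TMM, because scaling over selected genes forces their average change towards 0. The edgeR 4.0.16 quasi-likelihood test (R 4.3.3) ran on the 705 rows that passed its filter on low counts, without a block, with Benjamini-Hochberg adjustment over those rows and a threshold of 0.05. It was tested on simulated data first. Log2 fold changes and SEs come from log2 depth-scaled counts plus 0.5. Coordinates, overlaps, coding patterns and shared 31-base words come from GENCODE release 29 (GRCh38), which need not be the authors' annotation. Alternatives used DESeq2 1.42.0 and limma 3.58.1.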

Additional observations from a re-analysis of the deposited data

How the results depend on the processing

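With the recovered depth, 7 higher members and 1 lower member were called under the stricter count filter, the DESeq2 test and the 2-fold threshold, and 6 and 1 with limma when a gene had to average 0.5 FPKM. It was 9 and 1 without the count filter and with limma at pseudocounts of 0.1 and 0.01 FPKM, where ZSCAN4 and ZNF511-PRAP1 were tested too. With 1 library left out the count was 7 to 8 higher and 1 lower. In the main fit 73.3% of the 705 listed genes tested were called higher and 25.8% lower. With the 2-fold threshold the shares were 72.6% and 25.8%. For the other settings of this section the shares over all listed genes were not analysed here. Steady counts are therefore no result about the members in particular. TMM and DESeq2 size factors over the listed genes each left 1 member called higher, because their construction brings the middle of the listed genes to about 0. In those fits ZNF862 had log2 fold changes of -0.0709 and -0.0514, ZNF608 -0.16 and -0.14, ZNF362 -0.17 and -0.15, ZNF566 -0.16 and -0.14, and ZNF497 -0.18 and -0.16. Deviations of same-numbered libraries from their group means had correlations of -0.07, -0.06 and -0.02 over 705 genes. The labels do not say whether equal numbers share a batch. With 3 libraries per group and selected rows, these correlations cannot decide it. With the replicate number as a block 7 members were called higher and 1 lower. For ZNF511-PRAP1 the lower bound was 14.5-fold without shTMPRSS4 replicate 2, 5.98-fold without replicate 1 and 5.22-fold without control replicate 1. With 0 and 35 reads per group for ZNF511-PRAP1 and 3 and 52 for ZSCAN4, counting limits how closely these members can be sized.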
